A study of Homo sapiens with 8 samples.

Results

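FOS, FOSB, JUN, JUNB, JUND, EGR1, IER2, IER3, IER5 and DUSP1 are immediate early genes, and their ribosome footprints are described here in a neuroblastoma line given an inhibitor of the RNA helicase eIF4A. They are 10 of the 60651 genes in the deposited table and were chosen by name, through their Ensembl identifiers. The rule uses no measured value, but the genes were picked when earlier results of these data were known. Ribosome profiling sequences the mRNA fragments that ribosomes shield from nuclease. The cells were IMR32, an established human neuroblastoma line with amplified MYCN and, per the labels, a wild-type genotype. One group received CR31B, a rocaglate related to silvestrol, for 6 h (n = 4 libraries), and the other received the solvent DMSO at 0.1% (n = 4 libraries). All 8 libraries, controls included, were also exposed to cycloheximide, which arrests elongating ribosomes, before harvest. The dose of CR31B is not given in the sources used here. Wherever 4 values of a group are listed, they follow replicates 1 to 4. The groups come from 1 cell line, and the submitters call the 4 libraries of a group biological replicates.

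Immediate early genes are transcribed within minutes of a growth factor, depolarisation or stress signal, without new protein synthesis. MAP kinases, directly or through kinases that they activate, phosphorylate factors already on immediate early promoters, such as SRF with its ELK partners and CREB1. The resulting mRNAs are removed quickly, often through AU-rich elements in the 3′ UTR. FOS and JUN proteins pair through leucine zippers to form the transcription factor AP-1. EGR1 is a zinc finger transcription factor, DUSP1 is a phosphatase that switches MAP kinases off, and IER2, IER3 and IER5 encode small regulators of signalling, survival and the stress response. Rocaglates lock eIF4A onto purine-rich mRNA.

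Most of the 10 genes have short coding sequences and few exons, which their choice did not use. One reference transcript a gene was taken from GENCODE release 29, the one with the longest coding sequence and then the greatest length. In these, 5 of the 10 (JUN, JUNB, JUND, IER2 and IER5) have a single exon, against 1.68% of 9925 tested genes with annotated UTRs. The coding sequence was shorter than the median of those genes, 1410 nt, in 9 of the 10, and EGR1 with 1632 nt was the exception. The whole transcript was shorter than the median of 3091 nt in 6 of the 10, and longer in JUN, FOSB, EGR1 and IER5. JUN (chromosome 1, 58780788 to 58784327, minus strand, GRCh38), with 1 coding transcript in GENCODE, has a 5′ UTR of 1257 nt, at percentile 98.7 of those genes, whose median is 192 nt. RefSeq gives JUN a start further downstream, from which this 5′ UTR would be shorter. For IER2 (chromosome 19, 13150415 to 13154908, plus strand) the picture depends on the transcript: the reference one has 1 exon and a 5′ UTR of 1212 nt, but the median over its 3 coding transcripts is 363 nt, and 1 of the 3 has a single exon. IER3 (chromosome 6, 30743199 to 30744554, minus strand) has one of 36 nt. JUNB (12791496 to 12793315), JUND (18279760 to 18281622) and FOSB (45467995 to 45475179) also lie on chromosome 19. FOS lies at 75278774 to 75282230 on chromosome 14 and IER5 at 181088712 to 181092899 on chromosome 1. EGR1 (138465490 to 138469315) and DUSP1 (172768090 to 172771195) are both on chromosome 5. Since TPM, the length-scaled unit of the table, divides by the whole transcript while footprints fall mainly on coding sequence, genes with long UTRs receive a lower TPM for the same ribosome density. In JUN 996 of 3540 nt are coding, and in JUNB 1044 of 1820 nt.

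**Figure D1:**
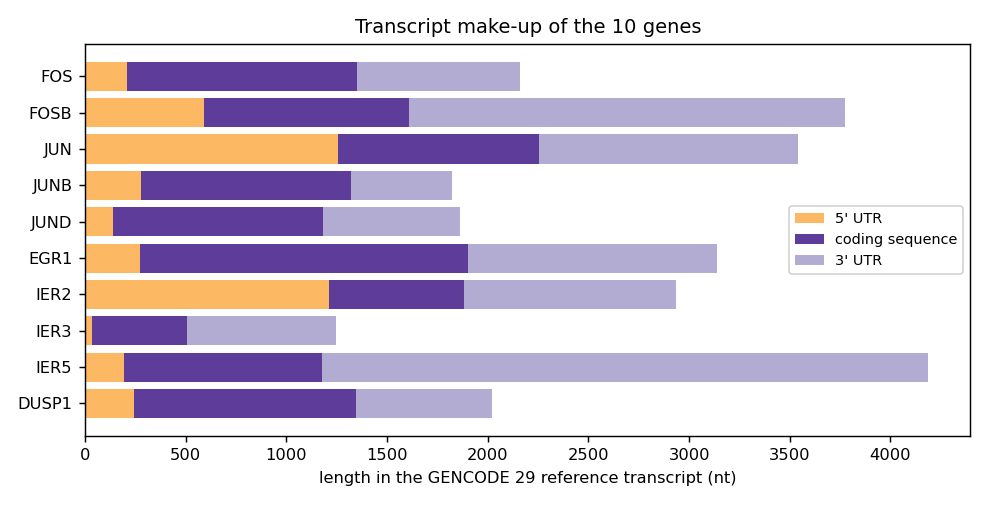
Lengths in nt of the 5′ UTR, coding sequence and 3′ UTR in the GENCODE 29 reference transcript of each of the 10 genes. JUN and IER2 carry 5′ UTRs of 1257 and 1212 nt in these transcripts, whereas most of IER5 is a 3′ UTR of 3013 nt.

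Stretches of the 3′ UTR are shown because AU-rich elements are often found in mRNAs of this class. In each the pentamer ATTTA, searched on the transcript strand, is in capitals, and the window of 30 bases with most copies was taken, written as DNA 5′ to 3′.
FOS, chr14:75282051-75282080, plus strand: gttttattgtgtttttaATTTATTTAttaa
JUN, chr1:58780951-58780980, minus strand: ATTTAtaatgttagtagaaattttacaata
IER3, chr6:30743651-30743680, minus strand: tcctaattaatATTTAtatgtATTTAtgta
IER5, chr1:181092452-181092481, plus strand: tttATTTATTTATTTATTTAattataaaaa
DUSP1, chr5:172768632-172768661, minus strand: ttATTTATTTAacttcacccgagttcctct
The IER5 window holds 4 overlapping pentamers, those of FOS, IER3 and DUSP1 hold 2 each, and that of JUN holds 1. The longer motif TATTTAT, which contains the pentamer, occurred in the 3′ UTR of 7 of the 10 genes, against 31.8% of the 9925 tested genes. Over the whole 3′ UTR, IER5 had 10 copies of ATTTA, IER3 6, FOS 5, DUSP1 4, and JUN and FOSB 3 each. JUNB had 2, JUND and EGR1 1 each and IER2 0, where the median of the 9925 genes was 2. The 0 in IER2 says only that these letters are not there.

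Purine runs in the 5′ UTR are shown for the JUN family because the inhibitor acts on eIF4A held on purines. Capitals mark the longest unbroken run of A and G.
JUN, chr1:58784252-58784281, minus strand: gggagggtAGGAGAAAGAAGGGcccgactg
JUNB, chr19:12791528-12791557, plus strand: agctgggagctGGGGGAAAcgacgccagga
JUND, chr19:18281485-18281514, minus strand: cccgggccggcgcggcGGGGGAGGcggagg
The run was 14 nt in JUN and 8 nt in both JUNB and JUND, while the median of the 9925 genes was 8 nt. A longer UTR offers more room for a long run. The JUN run lies in the 5′ UTR annotated by GENCODE but upstream of the start that RefSeq gives, so it is not certain to be part of the mRNA.

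Promoter windows were compared because several of these genes answer to the same kinases. RefSeq windows (GRCh38.p14) running from 250 bases before to 50 after the start were found for 9 of the 10 genes, all but IER3. The cyclic AMP response half-site TGACG was present on either strand in 8 of the 9, against 24.6% of 35116 windows, and it is part of the full site TGACGTCA, which was present in JUND and DUSP1 (1.85% of windows). The pattern TGANTCA, with any base at N, covers the AP-1 site and is wider than it. It was in 0 of the 9 (7.71% of windows), and the TATA box TATAAA was in FOS, FOSB, JUNB and DUSP1 (11.5% of windows). The variant TGACATCA, which the pattern TGANTCA does not match, was found in JUN alone among the 9 (2.61% of windows). By the GENCODE annotation this JUN site lies within the 5′ UTR. Within these windows the serum response element (CArG box) was found in EGR1 alone, in 2 copies (1.29% of windows). Bases more than 250 before the start were not searched, so an element further upstream in FOS or another member would be missed. Sites are in capitals, on the strand of the gene.
JUN, chr1:58784096-58784125: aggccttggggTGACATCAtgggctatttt
FOS, chr14:75278752-75278781: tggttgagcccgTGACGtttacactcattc
DUSP1, chr5:172771302-172771331: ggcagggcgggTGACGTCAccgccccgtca
EGR1, chr5:138465364-138465393: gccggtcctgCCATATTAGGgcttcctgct
EGR1, chr5:138465386-138465415: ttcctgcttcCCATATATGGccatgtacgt
ATF3, chr1:212565273-212565302: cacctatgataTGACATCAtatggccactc
DUSP10, chr1:221742304-221742333: ttggttgccaaTGACATCAccgcccgtgtt
ATF3 and DUSP10, described below, were added after their values had been seen. Of the 7 genes that rose in the lists below, they are the 2 whose windows hold TGACATCA. A match is a description of letters, not of binding, and these data do not measure transcription.

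Protein-coding genes took from 51.8% to 61.3% of the summed TPM of a library. CR31B replicate 1 was at 61.3%, and the other CR31B libraries were at 51.8% to 52.3%. DMSO libraries were at 52% to 58.4%. TPM keeps no read total, but the spacing of low values gave an estimate of the reads behind each gene. By that estimate JUN had 1758 to 2432 reads in each library, FOS 0 to 171 and FOSB 0 to 37. In TPM times length, 1 read was worth 15.89 to 22.45 in CR31B and 10.81 to 18.42 in DMSO. Genes above 0 numbered 17857 to 19758 in CR31B and 19043 to 22270 in DMSO. The CR31B libraries thus tended to be shallower, with overlap between the groups. Of 11 adrenergic neuroblastoma markers 10 had a mean of at least 1 TPM, with summed levels from 1294 to 1868 TPM in CR31B and from 1222 to 1462 TPM in DMSO. None of 5 immune and 3 endothelial markers did. Of 5 fibroblast markers COL1A1 did, with the list at 6.12 to 13.1 TPM in CR31B and 9.37 to 17.2 TPM in DMSO. Of 7 mesenchymal-type markers 3 did, led by VIM at a mean of 128.3 TPM, with the list at 121.4 to 150.4 TPM in CR31B and 107.6 to 164.2 TPM in DMSO, while PRRX1 was listed at 0 throughout. In such bulk libraries fewer cells that use a gene and less of its RNA per cell cannot be told apart, and without RNA libraries the amount of mRNA and the ribosomes on it cannot be told apart either.

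The comparison asked which footprint levels differed after the eIF4A inhibitor. TPM sums to about 1000000 in every library, so each level is a length-scaled share of all fragments assigned to genes in that library. Higher, lower, rose and fell refer to that share throughout. Protein-coding genes took 51.8% to 61.3% of the sum, so the share is not one of coding footprints alone. The total of footprints per cell was not measured. Among the 10 genes JUN showed the clearest difference, a level 1.56-fold higher in CR31B on the TPM + 1 scale, and it just missed the threshold. JUNB, JUND, EGR1, IER2, IER3, IER5 and DUSP1 did not pass, and the groups overlapped in each. FOS and FOSB were too low to test. In limma, fitted over the 11778 genes that averaged 1 TPM or more, 0 of the 8 tested members had an adjusted p under 0.05, against 7.46% of all tested genes. At an unadjusted p under 0.05 the count was 1 of 8 (JUN), against 23.4%. With the replicate number as a block, JUN passed as well, 1 of 8 against 12.3% of tested genes in either direction and 5.77% higher in CR31B. The median log2 fold change was 0.156 over the 8 and 0.029 over all tested genes, with 7 of the 8 above 0 and 54.1% of all tested genes above 0.

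**Figure D2:**
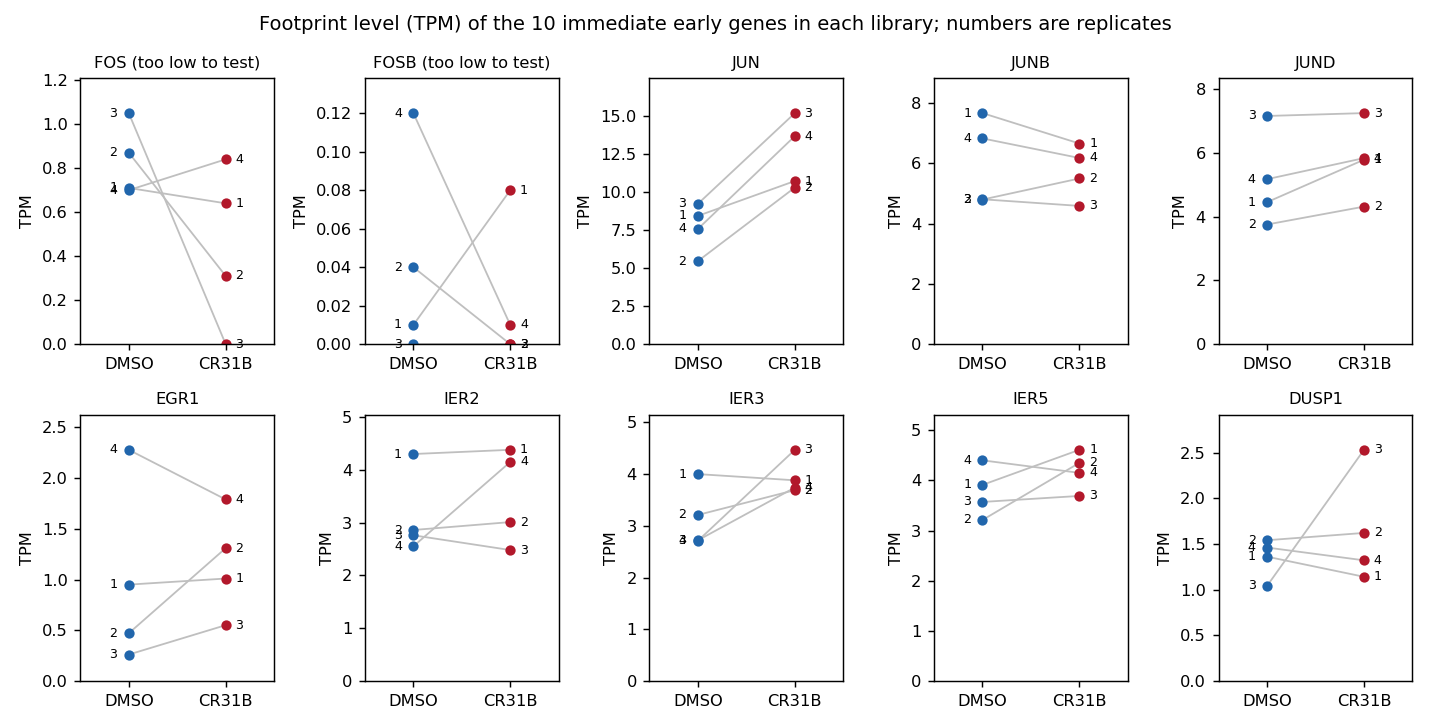
Footprint level (TPM, each axis from 0) of each gene in the 4 DMSO and 4 CR31B libraries, with lines joining libraries of the same replicate number. All 4 CR31B values of JUN (10.29 to 15.18 TPM) lie above all 4 DMSO values (5.46 to 9.22 TPM), and the groups overlap for the other 9 genes.

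JUN (ENSG00000177606.8), the founding AP-1 subunit and the substrate of the JNK kinases, was at 10.72, 10.29, 15.18 and 13.67 TPM under CR31B. Under DMSO it was at 8.43, 5.46, 9.22 and 7.57 TPM. All CR31B libraries stood above all DMSO libraries, which was so for 8.07% of tested genes in that direction and for 8.14% in the other, and the level was higher in 4 of 4 replicate pairs. The means were 12.5 ± 2.35 and 7.67 ± 1.62 TPM (mean ± SD over 4 libraries a group; exact permutation p of 0.0286, the smallest that 70 assignments allow). The change on the log2 scale was 0.64 (SE 0.18, 95% confidence interval 0.25 to 1.03), with a limma adjusted p of 0.0537 over all genes tested. With the replicate block the same log2 fold change had an SE of 0.12 and a limma adjusted p of 0.0189, so the call depended on the block. It passed in 4 of 17 alternatives, and leaving out DMSO replicate 3 was the single omission that brought it under the threshold (adjusted p 0.0474 in limma).

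JUNB (ENSG00000171223.6), a JUN relative with weaker activating power, was at 6.66, 5.50, 4.59 and 6.18 TPM under CR31B, against 7.67, 4.80, 4.81 and 6.83 TPM under DMSO. The groups overlapped, and the lowest level was in CR31B replicate 3, the library in which JUN was highest. It changed by -0.05 on the log2 scale (SE 0.17; 95% confidence interval from -0.43 to 0.33; adjusted p 0.902 in limma), and its sign turned without CR31B replicate 3 (0.04), DMSO replicate 1 (0.06) or DMSO replicate 4 (0.01). Exons of HOOK2 overlap JUNB on the opposite strand, and whether the counting used strand is not given in the sources used here, so the JUNB level is uncertain to that extent.

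JUND (ENSG00000130522.6), the JUN relative that many resting cells hold at a steady level, was at 5.78, 4.31, 7.24 and 5.83 TPM under CR31B, against 4.45, 3.75, 7.15 and 5.17 TPM under DMSO. It was slightly higher in CR31B in 4 of 4 pairs, yet the groups overlapped almost entirely. The change on the log2 scale was 0.16 (SE 0.19; 95% confidence interval from -0.27 to 0.59; adjusted p 0.672 in limma). In both groups replicate 3 was the highest JUND library and replicate 2 the lowest.

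Whether JUN moved apart from its relatives was tested with ratios within each library, which any factor common to a library leaves nearly unchanged. The log2 ratio of JUN to JUNB averaged 0.99 ± 0.40 under CR31B and 0.31 ± 0.34 under DMSO (SD, n = 4 each), a difference of 0.69 that was positive in 4 of 4 pairs (exact permutation p of 0.0857). For JUN to JUND it was 0.99 ± 0.14 and 0.51 ± 0.20 (SD, n = 4 each), a difference of 0.48 (exact permutation p of 0.0571). CR31B replicate 1 and DMSO replicate 1 had the same JUN to JUND ratio, 0.79. Without DMSO replicate 1 the groups no longer overlapped (difference 0.57, exact permutation p of 0.0286 over fewer assignments). Leaving out any other single library gave an exact permutation p of 0.0571 to 0.0857. The ratio of JUNB to JUND differed by -0.21 (exact permutation p of 0.486). With Benjamini-Hochberg adjustment over the 3 ratios the exact permutation p-values were 0.129, 0.129 and 0.486. A sign-flip test over the replicate pairs gave p-values of 0.125, 0.25 and 0.25, where 0.125 is the smallest that 4 pairs allow. None of the 3 ratios passed.

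**Figure D3:**
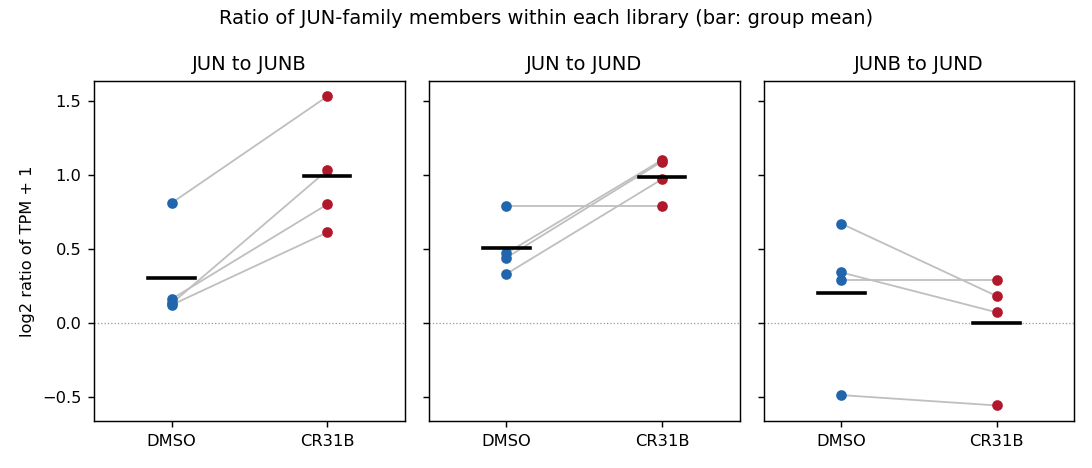
Log2 ratio of TPM + 1 between JUN-family members within each library, with lines joining the same replicate number and bars at the group means. The JUN to JUNB and JUN to JUND ratios average 0.99 in CR31B and 0.31 and 0.51 in DMSO, with overlap between the groups in each panel.

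FOS (ENSG00000170345.10), the partner of JUN in the classical AP-1 dimer, had a mean of 0.64 TPM over the 8 libraries and was not tested. It was at 0.64, 0.31, 0 and 0.84 TPM under CR31B, against 0.71, 0.87, 1.05 and 0.70 TPM under DMSO. Its value in CR31B replicate 3 is listed at 0, and the estimated reads elsewhere were 36 to 171. In that library 2 genes with at least 5 TPM in each of the other 7 libraries were also listed at 0, so such a 0 may be a failed estimate. The difference of mean log2(TPM + 1), CR31B minus DMSO, was -0.37 with all libraries and -0.21 without CR31B replicate 3, and the groups overlapped (exact permutation p of 0.114). FOSB (ENSG00000125740.14), a FOS relative whose truncated form gathers in neurons under repeated stimulation, did not exceed 0.08 TPM in CR31B or 0.12 TPM in DMSO and was listed at 0 in 3 libraries. No direction can be read for either FOS gene at these levels.

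EGR1 (ENSG00000120738.8) passed the filter narrowly, with a mean of 1.08 TPM, at percentile 1.47 of tested genes. It was at 1.01, 1.31, 0.55 and 1.79 TPM under CR31B, against 0.95, 0.47, 0.26 and 2.28 TPM under DMSO. In both groups replicate 4 was highest and replicate 3 lowest. The change on the log2 scale was 0.19 (SE 0.30; 95% confidence interval from -0.47 to 0.85; adjusted p 0.755 in limma). DUSP1 (ENSG00000120129.6) was at 1.14, 1.62, 2.53 and 1.32 TPM under CR31B, against 1.36, 1.54, 1.04 and 1.46 TPM under DMSO. One CR31B library, replicate 3, stood above the rest, and without it the log2 fold change went from 0.15 to 0.01 (limma adjusted p of 0.669 with all libraries).

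IER3 (ENSG00000137331.12), a survival regulator induced by NF-kappaB and p53 signals, was at 3.88, 3.69, 4.47 and 3.74 TPM under CR31B, against 4.00, 3.21, 2.71 and 2.72 TPM under DMSO. Only DMSO replicate 1 reached into the CR31B range. The change on the log2 scale was 0.26 (SE 0.14; 95% confidence interval from -0.06 to 0.57; adjusted p 0.311 in limma). IER3 exons overlap IER3-AS1 on the opposite strand. IER2 (ENSG00000160888.7) was at 4.38, 3.01, 2.48 and 4.15 TPM under CR31B, against 4.30, 2.86, 2.76 and 2.55 TPM under DMSO, with a log2 fold change of 0.13 (95% confidence interval -0.29 to 0.54, limma adjusted p of 0.743). Its exons overlap an antisense gene too. IER5 (ENSG00000162783.11), a target of the heat shock factor HSF1, was at 4.61, 4.35, 3.69 and 4.15 TPM under CR31B, against 3.91, 3.21, 3.57 and 4.40 TPM under DMSO, with a log2 fold change of 0.13 (95% confidence interval -0.17 to 0.42, limma adjusted p of 0.62). At levels as low as those of EGR1 and DUSP1 the TPM + 1 scale compresses changes, so their intervals do not bound a fold change in TPM.

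By mean TPM the order of the 10 genes was JUN (10.1), JUNB (5.88), JUND (5.46), IER5 (3.99), IER3 (3.55), IER2 (3.31), DUSP1 (1.5), EGR1 (1.08), FOS (0.64) and FOSB (0.0325). JUN exceeded JUNB in 8 of 8 libraries, although JUN is the gene with the longer UTRs. JUNB exceeded JUND in 6 of 8 libraries, and IER3 exceeded IER2 in 4 of 8, and the ranges overlapped between every pair of neighbours in this order. JUN lay near the middle of all tested genes, at percentile 52.6. Sequence shared with other genes was rare, with 0 of the 3512 stretches of 29 bases in the JUN transcript found in another GENCODE gene. The largest share among the 10 was 1.27%, in IER5.

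Of the genes around these 10, other AP-1 and related leucine zipper factors came first. In that list 7 of 14 genes were tested, and 1 rose while 0 fell, against 3.45% and 4.02% of all tested genes. ATF3 (ENSG00000162772.17), a stress-induced factor that dimerises with JUN, was at 11.68, 15.88, 19.97 and 9.65 TPM under CR31B, against 6.26, 3.99, 5.35 and 5.08 TPM under DMSO. The groups did not overlap, and CR31B replicate 3 was again the highest. ATF3 rose 2.42-fold on the TPM + 1 scale, a log2 fold change of 1.27 (SE 0.21; adjusted p 0.00688 in limma), and passed in 16 of 16 alternatives. ATF4, the upstream stress factor that induces it, went from 158.8 ± 35.3 to 276.8 ± 50.6 TPM (mean ± SD over 4 libraries a group; log2 fold change 0.81, adjusted p 0.0338 in limma). The ATF4 call was lost without CR31B replicate 1, 3 or 4 or DMSO replicate 1, 2 or 4 (adjusted p 0.0604 to 0.0906 in limma), and with no filter on the mean (0.13). MAFF, a small MAF factor, passed with the replicate block, at 0.66 ± 0.46 against 1.48 ± 0.355 TPM (mean ± SD over 4 libraries a group; adjusted p 0.116, or 0.046 with the block, in limma). FOSL1 and FOSL2, the other FOS relatives, averaged under 1 TPM and were not tested in limma. FOSL1 had group means of at most 0.0475 TPM. FOSL2 was lower in CR31B without overlap, at 0.443 ± 0.181 against 1.01 ± 0.281 TPM (SD, n = 4 each; exact permutation p of 0.0286, the smallest that 70 assignments allow). Non-overlap in that direction was seen for 8.14% of tested genes, and FOSL2 was itself too low to test. BATF3 was at 3.38 ± 0.706 and 2 ± 0.347 TPM without overlap, but did not pass (mean ± SD over 4 libraries a group; adjusted p 0.0732 in limma). Of the 7 tested genes of this list 2 were higher without overlap and 0 lower, beside 8.07% and 8.14% of all tested genes. MAFF, FOSL1, FOSL2 and BATF3 are named with their values already known.

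MAP kinase phosphatases are the negative feedback arm of the pathway, and 3 of 9 besides DUSP1 were high enough to test. Of these 2 rose and 0 fell, against 3.45% and 4.02% of all tested genes. DUSP6, which acts on ERK and is itself an ERK-induced gene, was at 5.74, 3.79, 4.71 and 6.74 TPM under CR31B, against 2.21, 1.98, 1.49 and 2.15 TPM under DMSO. It rose by 1.06 on the log2 scale (SE 0.17; adjusted p 0.00643 in limma). DUSP10, which acts on p38 and JNK, rose from 2.09 ± 0.349 to 4.33 ± 0.418 TPM (SD, n = 4 each), or by 0.79 on the log2 scale (SE 0.14; adjusted p 0.009 in limma). Both had no overlap between the groups, which was so for 8.07% of tested genes in that direction, whereas DUSP1 changed by 0.15. DUSP16, singled out after its values were seen, was at 3.15 ± 1.54 and 2.01 ± 0.635 TPM and did not pass (mean ± SD over 4 libraries a group; adjusted p 0.334 in limma). Exons of DUSP6 overlap an antisense gene. The differences between DUSP1 and its relatives were not tested.

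Of 40 other immediate early genes 24 were tested, with 4 higher, 2 lower and a median log2 fold change of 0.229, beside 3.45%, 4.02% and 0.029 for all tested genes. IER5L, the paralog of IER5, was at 9.89, 9.34, 15.55 and 9.82 TPM under CR31B, against 3.19, 3.13, 3.25 and 3.53 TPM under DMSO. It had the largest rise of the list, 1.48 on the log2 scale (SE 0.16; adjusted p 0.000995 in limma), while IER5 changed by 0.13. Whether the paralogs differ was not tested, and antisense genes overlap IER5L exons. ID1 and ID3, inhibitors of helix-loop-helix factors that answer to BMP signals, rose from 78.2 ± 19.2 to 151.2 ± 14.1 TPM and from 30.5 ± 7.73 to 56 ± 9.36 TPM (mean ± SD over 4 libraries a group; adjusted p 0.00835 and 0.0252 in limma). VGF, a secreted neuropeptide precursor induced by nerve growth factor, rose from 83.3 ± 6.42 to 152.8 ± 44.6 TPM (mean ± SD over 4 libraries a group; log2 fold change 0.83, adjusted p 0.0246 in limma). HOMER1, a synaptic scaffold with an activity-induced short form, fell by 1.02 on the log2 scale, from 4.24 ± 1.08 to 1.59 ± 0.548 TPM (mean ± SD over 4 libraries a group; adjusted p 0.0163 in limma). BTG1, an antiproliferative factor, fell by 0.69, from 15.9 ± 2.2 to 9.5 ± 1.78 TPM (mean ± SD over 4 libraries a group; adjusted p 0.0255 in limma), and its exons overlap other genes. ID3 did not pass without CR31B replicate 1, 3 or 4 or DMSO replicate 1 (adjusted p 0.0574 to 0.0648 in limma), nor VGF without CR31B replicate 4 or DMSO replicate 1 or 4 (0.0543 to 0.0774). HOMER1 did not pass without DMSO replicate 4 (0.0586), nor BTG1 without CR31B replicate 3 or 4 or DMSO replicate 2 or 4 (0.0537 to 0.0859). With no filter on the mean these 4 did not pass either (ID3 0.101, VGF 0.0952, HOMER1 0.0758, BTG1 0.0795). Like FOS and FOSB, 16 of the 40 were too low to test, EGR2, EGR3 and NR4A1 among them, which were named after their values were seen.

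**Figure D4:**
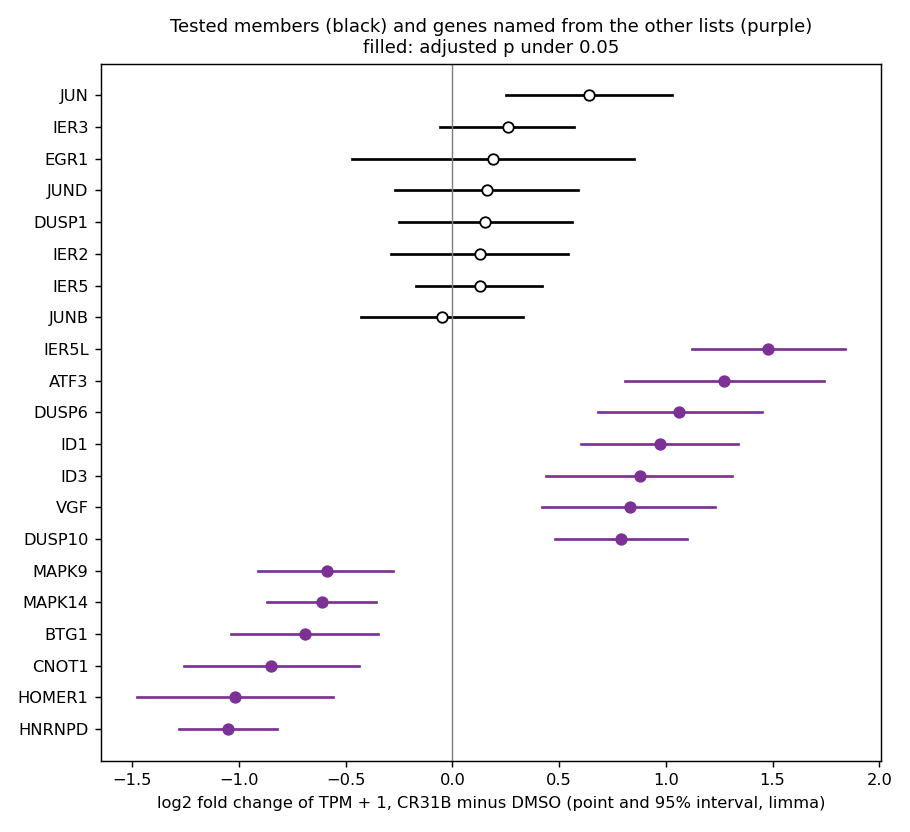
Log2 fold change of TPM + 1 (CR31B minus DMSO) with its 95% interval for the 8 tested members in black and the genes named from the other lists in purple, filled where the limma adjusted p is under 0.05. The interval of JUN lies above 0 from 0.25 to 1.03 without passing, and those of the other 7 members include 0.

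Upstream of these genes, 27 of 29 kinases and transcription factors were tested. None rose and 2 fell, beside 3.45% and 4.02% of all tested genes. MAPK14, the p38 alpha kinase, was at 14.80, 16.05, 13.04 and 13.11 TPM under CR31B, against 24.22, 20.62, 21.07 and 23.13 TPM under DMSO. It fell by 0.61 on the log2 scale (SE 0.12; adjusted p 0.0119 in limma). MAPK9, which encodes the JUN kinase JNK2, fell by 0.59, from 3.76 ± 0.458 to 2.16 ± 0.33 TPM (mean ± SD over 4 libraries a group; adjusted p 0.0318 in limma). MAPK9 did not pass without CR31B replicate 3 or 4 or DMSO replicate 1, 2 or 4 (adjusted p 0.0546 to 0.106 in limma), nor with no filter on the mean (0.085). CREB1 and the SRF partner ELK3 had non-overlapping higher levels in CR31B, at 53.9 ± 7.06 against 37.7 ± 5.56 TPM and at 8.16 ± 2.8 against 4.02 ± 1.67 TPM, without passing (mean ± SD over 4 libraries a group; adjusted p 0.0503 and 0.0684 in limma). With the replicate block CREB1 passed (adjusted p 0.0479 in limma). Of the 27 tested genes of this list 2 were higher without overlap and 5 lower, beside 8.07% and 8.14% of all tested genes. CREB1 and ELK3 are named with their values already known.

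All 13 genes listed for AU-rich element binding or decay were tested, and 2 fell while 0 rose, where 4.02% of all tested genes fell. The list holds binding proteins such as ELAVL1 and TIA1 and leaves out the TTP family, which was counted with the other immediate early genes. With the replicate block 4 fell and 0 rose, where 6.56% of all tested genes fell. Their median log2 fold change was -0.176, with 3 of 13 above 0. HNRNPD, or AUF1, which binds AU-rich elements such as those printed for FOS and DUSP1, was at 262.94, 249.96, 237.66 and 242.14 TPM under CR31B, against 518.72, 481.26, 504.44 and 561.65 TPM under DMSO. Every CR31B library was thus well below every DMSO library, where 8.14% of tested genes were lower without overlap. The change on the log2 scale was -1.05 (SE 0.10; adjusted p 0.000611 in limma), and it passed in 17 of 17 alternatives. An antisense gene overlaps its exons. CNOT1, the scaffold of the deadenylase complex, fell by 0.85, from 42.6 ± 7.52 to 23.5 ± 6.08 TPM (mean ± SD over 4 libraries a group; adjusted p 0.0217 in limma). CNOT1 did not pass without CR31B replicate 3 or 4 or DMSO replicate 1 or 2 (adjusted p 0.055 to 0.065 in limma), nor with no filter on the mean (0.0857). The 2 added by the block were TIAL1, an AU-rich element binding protein (adjusted p 0.0386, or 0.0871 without the block, in limma), and the deadenylase subunit CNOT8 (0.0385, or 0.0867), both chosen with values known. Of the TTP family, which recruits that complex, ZFP36 was too low to test at 0.728 (CR31B) and 0.855 (DMSO) TPM. ZFP36L1 was at 2.01 ± 0.754 and 1.14 ± 0.131 TPM and ZFP36L2 at 2.33 ± 0.143 and 1.72 ± 0.329 TPM (mean ± SD over 4 libraries a group). Both were higher in CR31B without overlap, as were 8.07% of tested genes, and neither passed (adjusted p 0.155 and 0.238 in limma). ZFP36L2 was added after its values were seen. The part of these factors in the levels of the 10 genes was not tested.

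**Figure D5:**
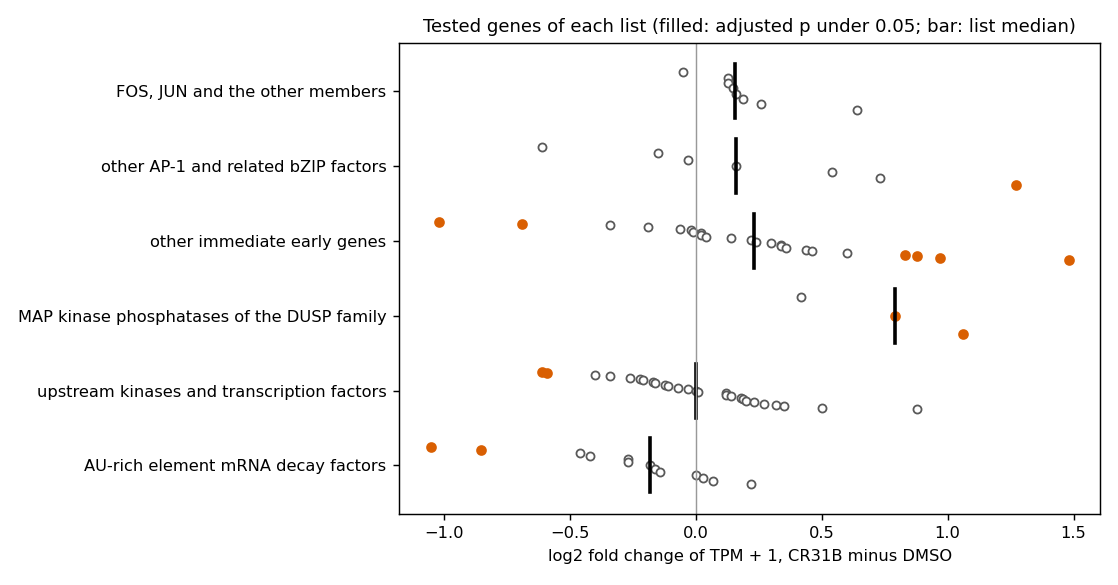
Log2 fold change of TPM + 1 (CR31B minus DMSO) of every tested gene, by list, filled where the limma adjusted p is under 0.05, with bars at list medians. The medians are 0.156 for the 8 members, 0.229 for the other immediate early genes and -0.176 for AU-rich element binding and decay factors.

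The genes whose profiles over the 8 libraries were most like that of JUN, among 5612 others with a mean of at least 10 TPM, were the pseudogene LDHAP4 (Pearson r of 0.965), the kainate receptor auxiliary subunit NETO1 (0.959) and the homeobox gene TLX2 (0.955). Of these NETO1 passed the test (log2 fold change 0.54, limma adjusted p of 0.0378). For EGR1 they were PMF1 (0.925), RBM34 (0.912) and TUBB6 (0.899), and for DUSP1 they were USP19 (0.929), BBIP1 (0.926) and POLR2J3 (0.902). All values come from the same 8 libraries and share their depth and treatment, so these likenesses are descriptions. MYCN averaged 891.4 ± 229.8 TPM under CR31B and 593.2 ± 55.9 TPM under DMSO (mean ± SD over 4 libraries a group; adjusted p 0.11, or 0.0301 with the replicate block, in limma). It also passed without CR31B replicate 2 (0.0245) and after rescaling over protein-coding genes (0.0362).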

How the data were processed

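The authors deposited 1 table of TPM per gene and library, with 60651 Ensembl identifiers. The submitters' processing notes name cutadapt 3.2, Bowtie2 2.3.4.1, STAR 2.7.1a, RSEM 1.2.28 and DESeq2 1.32.0 and the builds hg38 and GRCh38. The annotation, the strand setting and the treatment of reads with several positions are not given in the sources used here. Per the labels' protocols, fragments of 28 to 30 nt were selected. Symbols were found for 60481 identifiers. Here, log2(TPM + 1) of the 11778 genes averaging 1 TPM or more was fitted with limma 3.58.1 (R 4.3.3; trended eBayes, treatment as the only term) with Benjamini-Hochberg adjustment over all of them, and the fit was tested on simulated data. Fold changes understate those of low genes. TPM is not a count, so no count model was used. Single values had a two-sided exact permutation test over 70 assignments, or over fewer where 1 library was left out. Ratios also had a sign-flip test over the replicate pairs.

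Same-numbered libraries deviated together (correlations 0.333, 0.324, 0.301 and 0.105 across genes, with different numbers at a median of -0.123), so a fit with the replicate block was also made. What the numbers share is not stated in the labels. Reads were estimated from the spacing of low TPM values in genes with 1 transcript of 200 to 700 nt. Of those low values 49.8% to 72.1% per library were whole multiples within rounding, so read numbers are approximate. Sequence features used GENCODE 29 and RefSeq windows with Python 3.11.15. From each list, up to 4 genes per direction that passed without overlap were named. The members and lists were chosen with earlier results of these data known. Alternatives varied the pseudocount, filter, scaling, block, trend and libraries.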

Additional observations from a re-analysis of the deposited data

Results flagged for a closer look

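Of 50 groups of 4 libraries, for the genes named by rule, 3 held 1 library set apart from its group, where chance alone would give about 1 in 20 groups, or 2.5. The gap to the nearest library, divided by the range, was the measure. FOSB reached 0.08 TPM in CR31B replicate 1, on an estimated 19 reads, while its group otherwise lay at 0 to 0.01 TPM. IER5L reached 15.55 TPM in CR31B replicate 3, with 9.34 to 9.89 TPM in the remaining CR31B libraries, and it passed the test with or without that library. ATF4 was down at 106.21 TPM in DMSO replicate 3, with 172.10 to 181.02 TPM in the remaining DMSO libraries.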

How the results depend on the processing

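The log2 fold change of JUN stayed above 0 in 17 of 17 alternatives, with limma adjusted p from 0.0189 to 0.157. It passed with the replicate block (0.64, limma adjusted p of 0.0189), after rescaling over protein-coding genes (0.67, 0.0392) and after centring on the median of tested genes (0.60, 0.0495), and leaving out 1 library gave 0.50 to 0.73. JUNB ran from -0.13 to 0.06 when 1 library was left out, with its sign turning in 3 cases, 0.04, 0.06 and 0.01. No alternative brought another tested member under the threshold. With pseudocount 0.1 the untested differences of FOS and FOSB were -1.17 and -0.19. A low pseudocount gives more weight to the 0 listed for FOS in CR31B replicate 3, which may be a failed estimate. No direction is read from either value. The JUN to JUND difference was 0.37 with pseudocount 5 (exact permutation p of 0.0286) and 0.42 to 0.57 when 1 library was left out.

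Over all genes, 406 were higher and 473 lower. With no filter on the mean 181 were higher and 261 lower, with the replicate block 680 and 773, after rescaling over protein-coding genes 674 and 566, and after centring 443 and 734. Leaving out 1 library gave 197 to 393 higher and 208 to 486 lower, both lowest without DMSO replicate 4. In the other lists 7 genes rose and 6 fell. Rises numbered 4 with a mean of at least 10 TPM, 11 after rescaling and 5 to 8 when 1 library was left out. Falls numbered 2 with no filter, 10 with the replicate block and 3 to 7 when 1 library was left out. For the 13 genes named from those lists, 188 values kept their side of the threshold, 27 lost it and 0 turned sign. The low read numbers of FOS, FOSB and EGR1 limit what can be seen for them.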
